A study of Homo sapiens with 6 samples.

Results

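Aldehyde dehydrogenases (ALDH), aldo-keto reductases (AKR) and glutathione S-transferases (GST and the membrane-bound MGST) were followed in PANC-1, a human cell line from a pancreatic ductal carcinoma, after knockdown of RRM2. The members are the protein-coding genes whose RefSeq symbol is ALDH with a number, AKR1, AKR7, GSTA, GSTK, GSTM, GSTO, GSTP, GSTT or GSTZ with a number, and MGST1 to MGST3. Of the 42902 gene IDs in the deposited count table, 51 are members: 19 ALDH, 13 AKR, 16 GST and 3 MGST genes. GSTM1 and GSTT2B, which also meet the symbol rule, were not analysed here.

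The libraries labelled shRRM2 came from PANC-1 cells in which a hairpin RNA targets RRM2, a subunit of ribonucleotide reductase. The libraries labelled NC, called shNC here, came from PANC-1 cells with a control hairpin, their genotype listed as wild type. There were 3 RNA-seq libraries in each group. The labels give no time point, no number of hairpins or clones and no statement that the libraries of a group are separate cultures, so each p-value reflects library-to-library spread alone, and that spread may be technical.

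All 3 families handle reactive molecules. Aldehyde dehydrogenases oxidise aldehydes to acids with NAD or NADP, and some of them serve amino acid breakdown, proline synthesis, folate metabolism or the making of retinoic acid. Aldo-keto reductases take aldehydes and ketones to alcohols with NADPH, among them glucose, steroids and prostaglandins. Glutathione S-transferases couple electrophiles, including lipid peroxidation products and many drugs, to glutathione for export. Several members, such as AKR1B10 and the AKR1C genes, are textbook targets of the transcription factor NRF2, and ALDH1A1 and ALDH1A3 are used as markers of stem-like tumour cells.

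The libraries held 16606947 to 23300433 counts. RRM2 had 716, 808 and 716 counts in the shRRM2 libraries, against 3567, 4435 and 3342 in the shNC libraries. On the log2 scale the difference was -2.31 (SE 0.0443, edgeR adjusted p = 3.72e-29), which leaves 20.2% of the shNC level. Mitochondrial transcripts took 5.95% to 5.97% of the counts in shRRM2 and 6.05% to 6.24% in shNC. The 8 epithelial markers summed to 3477 to 3531 CPM (counts per 1000000 of a library's total) in shRRM2 and 2531 to 2608 CPM in shNC, mostly from KRT8, KRT18 and KRT7, while KRT19, EPCAM and CDH1 had only 22, 53 and 182 counts over the 6 libraries. Many members are known for high levels in liver; of the liver markers 8 of 10 were below the filter and ALB, SERPINA1 and AHSG were at 0, with summed levels of 2.02 to 2.92 CPM in shRRM2 and 2.06 to 2.62 CPM in shNC. The 10 immune markers summed to 88.7 to 93.6 CPM in shRRM2 and 29.1 to 30.2 CPM in shNC, mostly from CD68, with CD3E, MS4A1 and HLA-DRA at 0. The 10 fibroblast markers summed to 63.0 to 68.7 CPM in shRRM2 and 28.5 to 30.4 CPM in shNC, and the 10 endothelial markers to 95.3 to 100.2 CPM in shRRM2 and 68.2 to 73.8 CPM in shNC. Of these lists, with log2 fold changes in parentheses, COL1A1 (0.73), PDGFRB (1.65), FAP (2.78), ESAM (0.76), CDH5 (1.44), VWF (2.45) and ERG (0.77) were called higher in shRRM2, while DCN had 8 counts and KDR 0 over all libraries. The acinar and endocrine markers of the pancreas, 10 each, summed to at most 1.32 and 7.57 CPM in shRRM2 and 1.20 and 7.98 CPM in shNC. The part of these markers in the results below was not tested.

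Of the 51 members, 37 passed edgeR's filter on low counts, and 22 of these were called: 16 were higher and 6 lower in shRRM2 (edgeR quasi-likelihood test with Benjamini-Hochberg adjustment over 15866 genes, threshold 0.05). That is 59.5% of those tested. Among all tested genes 52.1% were called, 26.0% higher and 26.1% lower, so the members' share of calls, both directions together, is near that of the transcriptome. By direction the split was uneven, with 16 of the 37 higher and 6 lower. Whether this split differs from that of all tested genes was not tested. The members' median log2 fold change was 0.14, against -0.01 over all tested genes. On TMM-scaled library sizes, used for CPM from here on, shRRM2 and shNC libraries were fully apart for 24 of the 37, against 57.8% of all tested genes. Past 0.5 in log2 size as well, 7 members were called, 5 higher and 2 lower, against 19.3% of all tested genes, 12.1% higher and 7.20% lower. Fold changes are shRRM2 over shNC throughout, on the log2 scale, and each adjusted p is from this edgeR test. In bulk RNA, fewer cells of a kind and less RNA per cell cannot be told apart.

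**Figure D1:**
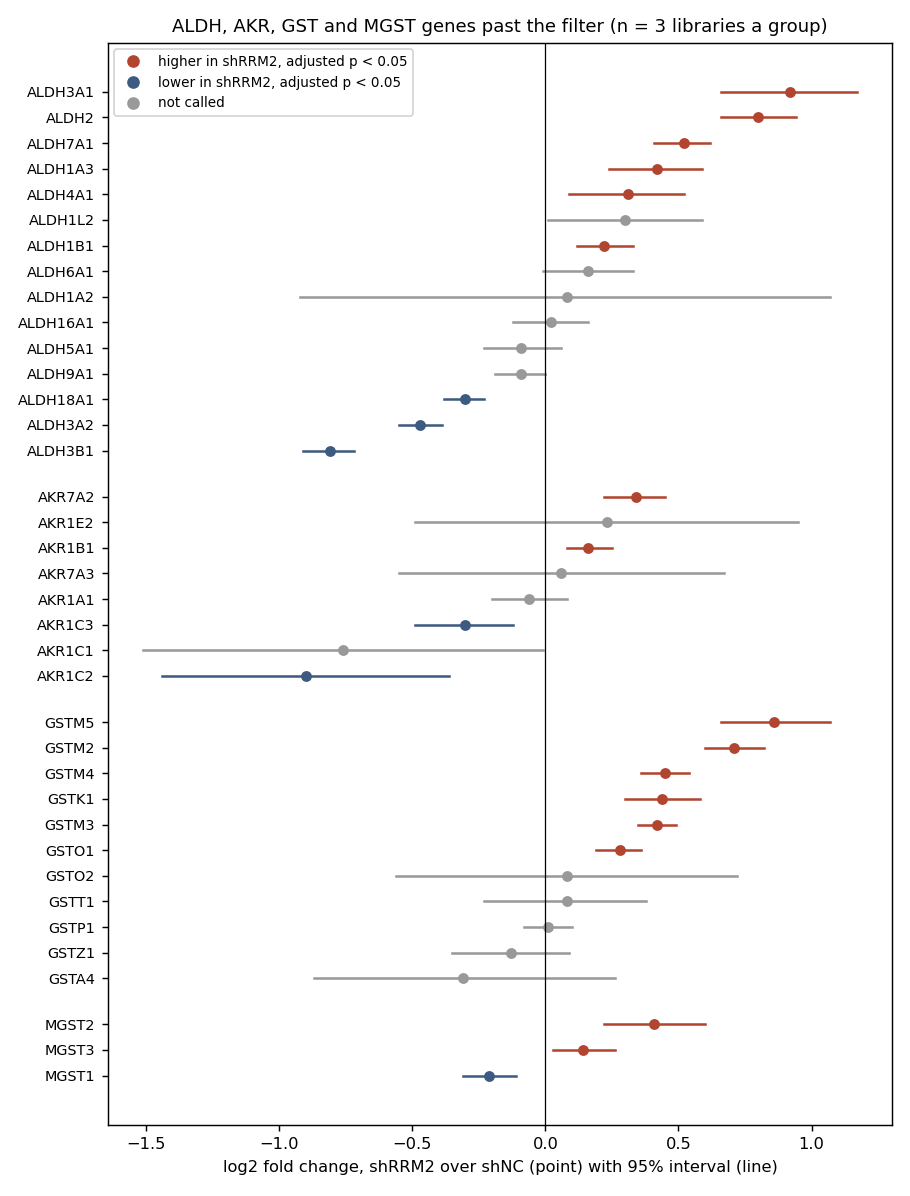
Log2 fold change (shRRM2 over shNC, x axis) of each of the 37 members past the filter, grouped by family, with its 95% interval as a line. Red points are the 16 members called higher in shRRM2, blue points the 6 called lower and grey points the 15 not called; values run from -0.90 for AKR1C2 to 0.92 for ALDH3A1.

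Of 15 measured aldehyde dehydrogenases, 6 rose, 3 fell and 6 were not called, where 26.0% of all tested genes rose and 26.1% fell. ALDH3A1 (chr17:19737984-19748298, GRCh38), which oxidises aromatic and medium-chain aldehydes and is known as an abundant enzyme of the cornea and as a target of the aryl hydrocarbon receptor, had the highest fold change of the members. It stood at 15.2, 15.0 and 12.9 CPM in the shRRM2 libraries, against 8.34, 6.72 and 7.90 CPM in the shNC libraries. Every shRRM2 library was above every shNC library, a log2 fold change of 0.92 (SE 0.124, edgeR adjusted p = 1.46e-07).

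ALDH3A2 (chr17:19648136-19677596), the fatty aldehyde dehydrogenase of the endoplasmic reticulum, lies 60.4 kb from ALDH3A1 and moved the other way. It had 107, 105 and 104 CPM in shRRM2 and 150.3, 142 and 147 CPM in shNC, with no overlap (log2 fold change -0.47, SE 0.0397, adjusted p = 6.30e-12). ALDH3B1 (chr11:68008547-68029276), which acts on lipid-derived aldehydes, fell further. It had 61.8, 64.0 and 59.8 CPM in shRRM2, against 109.8, 108 and 108 CPM in shNC (log2 fold change -0.81, SE 0.0465, adjusted p = 3.75e-16). The libraries of each group lay close together, and the fitted shRRM2 level was 57.0% of that in shNC. ALDH3B2, the closest relative of ALDH3B1, had 1 count in all.

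The mitochondrial enzymes that oxidise acetaldehyde were higher in shRRM2. ALDH2 (chr12:111766933-111817532), best known for clearing acetaldehyde after alcohol intake, had 42.0, 44.7 and 46.3 CPM in shRRM2, against 26.3, 25.5 and 24.7 CPM in shNC. The groups were clearly apart, at 0.80 in log2 fold change (SE 0.0690, adjusted p = 1.11e-11). ALDH1B1, its closest relative in the mitochondrion, was at 74.0 ± 4.06 CPM in shRRM2 and 63.5 ± 1.30 CPM in shNC (SD, n = 3 each), a rise of 0.22 with no overlap (edgeR adjusted p = 5.42e-04).

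The enzymes that make retinoic acid from retinaldehyde were at unequal levels. ALDH1A1 had 0 counts in each library, which allows up to 0.0266 CPM over the 6 libraries combined (3 counts, counting error only). ALDH1A2 had 11, 7 and 15 counts in shRRM2 and 15, 10 and 7 in shNC, too few to tell the groups apart (log2 fold change 0.08, SE 0.487, adjusted p = 0.910). Per transcript length, ALDH1A3 stood at 7.26 CPM per kb in shRRM2 and 5.42 CPM per kb in shNC, against 0.147 and 0.140 CPM per kb for ALDH1A2 in the same groups. ALDH1A3 had 31.7, 27.0 and 26.8 CPM in shRRM2, against 19.4, 23.5 and 21.0 CPM in shNC, a rise of 0.42 (SE 0.0871, adjusted p = 1.44e-04). Exons of ALDH1A3 overlap those of an antisense gene over 1585 bases in GENCODE release 29, and the strand setting of the counting is not given in the sources used here. Of the measured members, 10 share at least 50 exon bases with an antisense gene, ALDH3A1 and GSTM3 among them.

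Members that serve amino acid and folate metabolism moved in both directions. ALDH7A1 (chr5:126541841-126595219), which acts in lysine breakdown, rose: it had 77.5, 85.2 and 79.9 CPM in shRRM2 and 56.1, 55.6 and 57.9 CPM in shNC (log2 fold change 0.52, SE 0.0517, adjusted p = 2.56e-10). ALDH18A1, the first enzyme of proline synthesis from glutamate, fell. It had 177, 174 and 180.1 CPM in shRRM2, against 224, 215 and 217 CPM in shNC (-0.30, SE 0.0350, adjusted p = 5.56e-09). ALDH4A1, which closes proline breakdown in the opposite direction of that pathway, was at 15.0 ± 0.732 CPM in shRRM2 and 12.1 ± 0.571 CPM in shNC (SD, n = 3 each). Its rise of 0.31 passed the threshold (edgeR adjusted p = 0.0155), but not without shNC replicate 2 (0.27, adjusted p = 0.0689). It shares 40.4% of its 100-base windows with an overlapping gene on the same strand.

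The other aldehyde dehydrogenases were not called. ALDH1L2, the mitochondrial formyltetrahydrofolate dehydrogenase, was at 7.47 ± 0.492 CPM in shRRM2 and 6.07 ± 0.238 CPM in shNC (SD, n = 3 each) with no overlap, at a log2 fold change of 0.30 (edgeR adjusted p = 0.0823). Its cytosolic counterpart ALDH1L1 had 1 count in all. ALDH5A1, which removes succinic semialdehyde from GABA breakdown, was at -0.09, with a 95% interval of -0.23 to 0.06. ALDH9A1, an enzyme of carnitine synthesis, was at -0.09 and passed only without shNC replicate 2 (-0.14, adjusted p = 0.0279). ALDH6A1, of valine breakdown, was at 0.16 (adjusted p = 0.107) and passed only with library size alone as scaling (0.20, adjusted p = 0.0450). ALDH16A1 was at 0.02, with an interval of -0.12 to 0.16. ALDH8A1 had 5 counts in all.

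**Figure D2:**
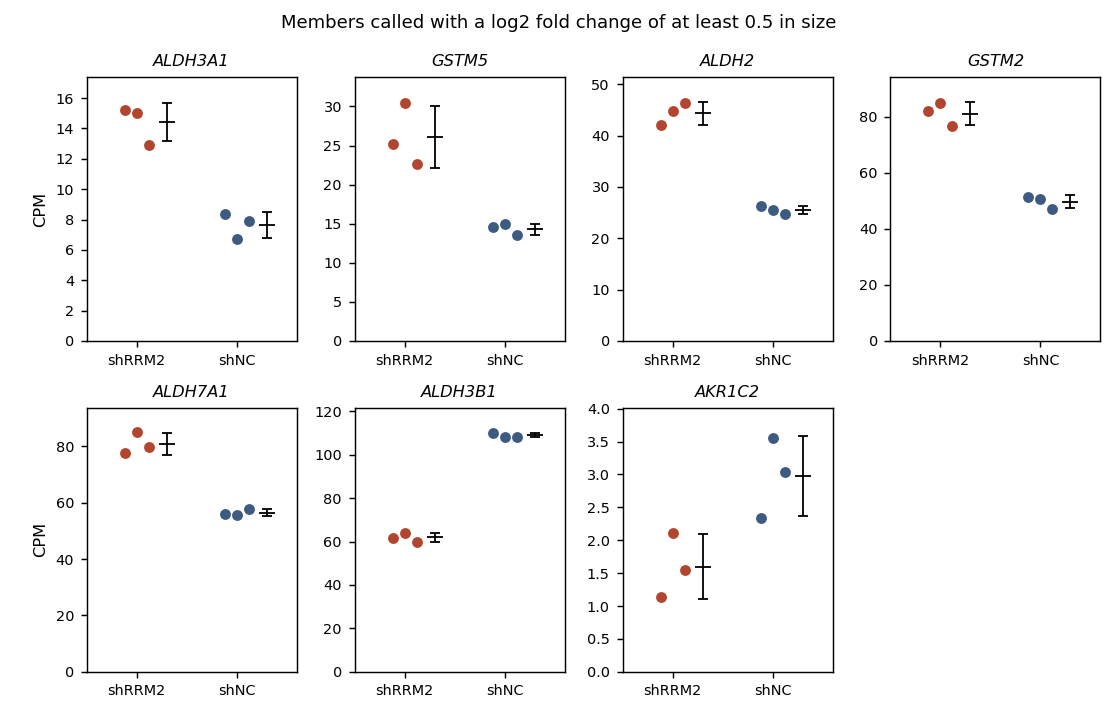
CPM (y axis, from 0) of the 7 members called at 0.5 or more in log2 size, in the 3 shRRM2 libraries (red points) and the 3 shNC libraries (blue points), with mean and SD in black beside them. In none of the 7 do the groups overlap; ALDH3B1 and AKR1C2 are lower in shRRM2 and the other 5 are higher.

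Of 8 measured aldo-keto reductases, 2 rose, 2 fell and 4 were not called, where 26.0% of all tested genes rose and 26.1% fell. AKR1B1, aldose reductase, which turns glucose into sorbitol, had the highest level per transcript length of the 8. It had 178, 192 and 197 CPM in shRRM2, against 174, 161 and 171 CPM in shNC, a rise of 0.16 (SE 0.0400, adjusted p = 7.76e-04). The lowest shRRM2 library was only slightly above the highest shNC library. AKR7A2, an aldehyde reductase that also acts on succinic semialdehyde, had 63.8, 65.3 and 60.4 CPM in shRRM2 libraries, against shNC libraries at 50.6, 52.2 and 47.2 CPM, and rose by 0.34 (edgeR adjusted p = 6.17e-06). AKR1A1, the general aldehyde reductase, was at -0.06 (adjusted p = 0.497), with a 95% interval of -0.20 to 0.08. AKR1E2 and AKR7A3 stood at 1.14 and 1.62 CPM over all libraries and were not called.

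The AKR1C genes, hydroxysteroid dehydrogenases that lie side by side on chromosome 10 (AKR1C1 to AKR1C3, chr10:4963415-5107686), all had lower means in shRRM2, and 2 of the 3 measured were called. AKR1C3, which also makes prostaglandins and androgens, had 18.5, 20.6 and 20.1 CPM in shRRM2, against 27.0, 21.8 and 24.5 CPM in shNC. The groups did not overlap, but shNC replicate 2 lay close to the shRRM2 libraries (log2 fold change -0.30, SE 0.0898, adjusted p = 0.00505). It did not pass without shNC replicate 1 (-0.23, adjusted p = 0.0565).

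AKR1C2 and AKR1C1 were counted at low levels. AKR1C2 had 20, 42 and 28 counts in shRRM2 and 41, 82 and 50 in shNC, or 1.13, 2.11 and 1.55 CPM in shRRM2 against 2.34, 3.56 and 3.04 CPM in shNC. The highest shRRM2 library was just below the lowest shNC library (log2 fold change -0.90, SE 0.266, adjusted p = 0.00494). It did not pass without shNC replicate 2 (-0.74, adjusted p = 0.0546). AKR1C1 had 9, 22 and 15 counts in shRRM2 and 21, 35 and 24 in shNC. At -0.76 (SE 0.368, adjusted p = 0.0834) it was not called, although the CPM did not overlap, and it passed only without shRRM2 replicate 2 (-1.05, adjusted p = 0.0464).

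AKR1C1 and AKR1C2 are close copies. In GENCODE release 29, 17.4% of the 100-base windows of the AKR1C1 transcript and 32.9% of those of AKR1C2 also occur in transcripts of another gene, each other among them, against 4.98% for AKR1C3. Reads from these windows may not be assignable to 1 gene, so the split between them is uncertain. Summed over the 5 members of the branch, the counts came to 20.3, 23.8 and 22.5 CPM in shRRM2 and 30.6, 26.9 and 29.2 CPM in shNC, a log2 ratio of -0.38 between the means, with no overlap. AKR1C4 had 5 counts in all and AKR1C8 had 0.

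The likeness of the pair extends to the bases before an annotated transcript start of each. The 250 bases before an annotated transcript start, from RefSeq on GRCh38.p14 and written in the direction of transcription, are shown because these neighbours all had lower means in shRRM2; capitals mark the 2 longest runs that all 3 share, of 12 bases each.
AKR1C1, chr10:4963165-4963414, plus strand: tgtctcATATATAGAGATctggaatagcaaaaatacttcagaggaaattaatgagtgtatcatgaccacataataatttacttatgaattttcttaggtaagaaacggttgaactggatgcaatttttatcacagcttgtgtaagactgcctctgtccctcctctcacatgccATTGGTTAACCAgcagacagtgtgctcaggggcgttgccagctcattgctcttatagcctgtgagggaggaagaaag
AKR1C2, chr10:5003858-5004107, minus strand: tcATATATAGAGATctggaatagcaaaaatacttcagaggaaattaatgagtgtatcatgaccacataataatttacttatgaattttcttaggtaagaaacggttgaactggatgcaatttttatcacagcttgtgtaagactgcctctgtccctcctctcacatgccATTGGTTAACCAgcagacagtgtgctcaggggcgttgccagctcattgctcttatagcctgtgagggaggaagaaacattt
AKR1C3, chr10:5048531-5048780, plus strand: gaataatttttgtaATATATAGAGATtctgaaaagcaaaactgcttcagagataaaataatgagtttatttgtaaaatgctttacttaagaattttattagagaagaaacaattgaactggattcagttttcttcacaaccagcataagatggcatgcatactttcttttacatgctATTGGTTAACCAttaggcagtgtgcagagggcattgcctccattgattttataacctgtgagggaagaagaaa
In a global alignment, ends included, AKR1C1 and AKR1C2 had 96.5% identical positions, AKR1C1 and AKR1C3 72.4%, and AKR1C2 and AKR1C3 70.6%. The AKR1C2 window lies inside that gene, which spans chr10:4987775-5018000 on the minus strand. The windows of AKR1C1 and AKR1C3 end where their genes begin. Whether the shared bases bear on the lower means was not tested.

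AKR1B10, a retinaldehyde reductase known from smokers' airways and liver tumours, was below the filter, with 5, 12 and 9 counts in shRRM2 and 3, 1 and 2 in shNC. It was not tested with that filter, and its paralog AKR1B15 had 3 counts in all. AKR1D1, a steroid reductase of the liver, also had 3.

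Of 11 measured soluble glutathione transferases, 6 rose and 5 were not called. Each of the 4 measured genes of the mu class rose. These genes lie close together on chromosome 1 (GSTM4, GSTM2, GSTM5 and GSTM3, chr1:109656099-109741038). GSTM3 is known from testis and brain, and the class conjugates many electrophilic drugs and carcinogens. Among all tested genes 26.0% were called higher.

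GSTM5 had 25.2, 30.4 and 22.6 CPM in shRRM2, against 14.6, 14.9 and 13.5 CPM in shNC (log2 fold change 0.86, SE 0.0994, adjusted p = 5.97e-09). The shNC libraries were tight and the shRRM2 libraries more spread, with replicate 2 the highest. GSTM2 had 81.9, 84.9 and 76.7 CPM in shRRM2, against 51.4, 50.6 and 47.1 CPM in shNC (0.71, SE 0.0542, adjusted p = 5.77e-13). GSTM4 had 104, 107 and 104 CPM in shRRM2, against 74.9, 78.6 and 77.1 CPM in shNC (0.45, SE 0.0446, adjusted p = 2.43e-10). GSTM3, the highest of the class per transcript length, had 381, 422 and 391 CPM in shRRM2, against 304, 289 and 302 CPM in shNC (0.42, SE 0.0351, adjusted p = 5.51e-12). In none of the 4 genes did a shRRM2 library reach down to the shNC range.

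Transcripts of this class also share sequence in part. Of the 100-base windows of GSTM2, 63.6% occur in transcripts of other genes, GSTM1 and GSTM4 among them, both annotated as overlapping it on the same strand, so the level of GSTM2 is uncertain. The share was 4.49% for GSTM4, 2.66% for GSTM3 and 1.30% for GSTM5. Summed over the 4 genes, the counts came to 593, 644 and 594 CPM in shRRM2 and 445, 433 and 439 CPM in shNC, a log2 ratio of 0.47.

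The 250 bases before an annotated transcript start of GSTM2, GSTM4 and GSTM5, again from RefSeq on GRCh38.p14 and in the direction of transcription, are shown because these neighbours rose together. GSTM3 also rose, but its window is not shown. Whether the shared bases bear on the rise was not tested. Capitals mark the longest run of GSTM2 in GSTM5 (21 bases) and the longest run of GSTM4 in GSTM5 (23 bases).
GSTM2, chr1:109667807-109668056, plus strand: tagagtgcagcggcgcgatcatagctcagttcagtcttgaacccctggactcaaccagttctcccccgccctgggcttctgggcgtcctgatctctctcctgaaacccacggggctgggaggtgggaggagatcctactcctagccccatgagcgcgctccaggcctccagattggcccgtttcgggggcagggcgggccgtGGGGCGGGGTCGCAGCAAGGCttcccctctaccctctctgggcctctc
GSTM4, chr1:109655849-109656098, plus strand: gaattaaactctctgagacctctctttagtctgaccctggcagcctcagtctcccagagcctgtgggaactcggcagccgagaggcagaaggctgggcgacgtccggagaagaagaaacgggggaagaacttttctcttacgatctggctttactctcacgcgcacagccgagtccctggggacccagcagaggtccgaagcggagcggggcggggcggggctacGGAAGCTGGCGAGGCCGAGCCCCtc
GSTM5, chr1:109712001-109712250, plus strand: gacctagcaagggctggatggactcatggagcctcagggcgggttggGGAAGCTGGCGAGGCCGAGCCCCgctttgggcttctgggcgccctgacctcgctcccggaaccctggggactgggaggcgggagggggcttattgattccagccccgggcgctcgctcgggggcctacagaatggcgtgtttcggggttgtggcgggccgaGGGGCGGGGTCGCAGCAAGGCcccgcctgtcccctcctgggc
GSTM2 and GSTM5 had 68.0% identical positions in a global alignment, GSTM2 and GSTM4 51.2%, and GSTM4 and GSTM5 51.3%. The run shared by GSTM2 and GSTM5 begins 48 bases before the transcript start used for GSTM2 and 42 before that used for GSTM5. The GSTM5 window lies inside that gene, which spans chr1:109711751-109718268, while those of GSTM2 and GSTM4 end where their genes begin. The core letters of the antioxidant response element, TGACNNNGC, were searched on both strands and are found once in the GSTM5 window. The core of the aryl hydrocarbon receptor element, TNGCGTG, is also found there once. The windows of GSTM2 and GSTM4 hold neither. Over the 42 members with a promoter entry, 5 held the first (AKR7A2, GSTA4, GSTM5, GSTO1 and GSTP1), or 11.9%, against 13.2% of 27305 genes. The second was in 1 of the 42, or 2.38%, against 5.54% of all genes.

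GSTP1, the pi-class enzyme, often the main transferase of cultured tumour cells, was not called. It had 459.9, 504 and 439 CPM in shRRM2, against 478, 468 and 447 CPM in shNC, and the groups overlapped. Its log2 fold change was 0.01, with a 95% interval of -0.08 to 0.10 (SE 0.0411, adjusted p = 0.860). GSTO1, an omega-class enzyme with thioltransferase activity, had 122, 135 and 133 CPM in shRRM2, against 107, 106 and 108 CPM in shNC (0.28, SE 0.0426, adjusted p = 1.59e-06). GSTO2, which begins 1.73 kb from it, stood at 1.53 CPM and was not called.

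GSTK1, the kappa-class enzyme of mitochondria and peroxisomes, was at 53.1 ± 5.75 CPM in shRRM2 and 39.2 ± 1.14 CPM in shNC (SD, n = 3 each), a rise of 0.44 (edgeR adjusted p = 1.41e-06). GSTT1, of the theta class, was at 0.08 (95% interval -0.23 to 0.38). GSTZ1, which acts in tyrosine breakdown, was at -0.13 (-0.35 to 0.09). The alpha class was mostly undetected: GSTA1, GSTA2, GSTA3 and GSTA5 had 0 counts in all 6 libraries. GSTA4, which conjugates the lipid peroxidation product hydroxynonenal, had 39, 23 and 36 counts in shRRM2 and 35, 57 and 34 in shNC (-0.31, SE 0.278, adjusted p = 0.370). GSTT4 also had 0 counts.

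The 3 microsomal transferases all passed the threshold, in both directions, where 52.1% of all tested genes passed it. MGST1, an abundant enzyme of the endoplasmic reticulum and the outer mitochondrial membrane, fell: it was at 68.3 ± 2.84 CPM in shRRM2 and 79.1 ± 0.404 CPM in shNC (SD, n = 3 each; -0.21, edgeR adjusted p = 4.93e-04). MGST2, which can make leukotrienes, was at 23.8 ± 2.40 CPM in shRRM2 and 17.9 ± 1.64 CPM in shNC and rose by 0.41 (edgeR adjusted p = 4.18e-04). MGST3 rose by 0.14 (adjusted p = 0.0379). That call was lost with DESeq2 (adjusted p = 0.0691), without a filter on low counts (adjusted p = 0.0522), and without any 1 of 5 libraries, shRRM2 replicates 1 and 2 and shNC replicates 1 to 3 (adjusted p = 0.0640 to 0.193).

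**Figure D3:**
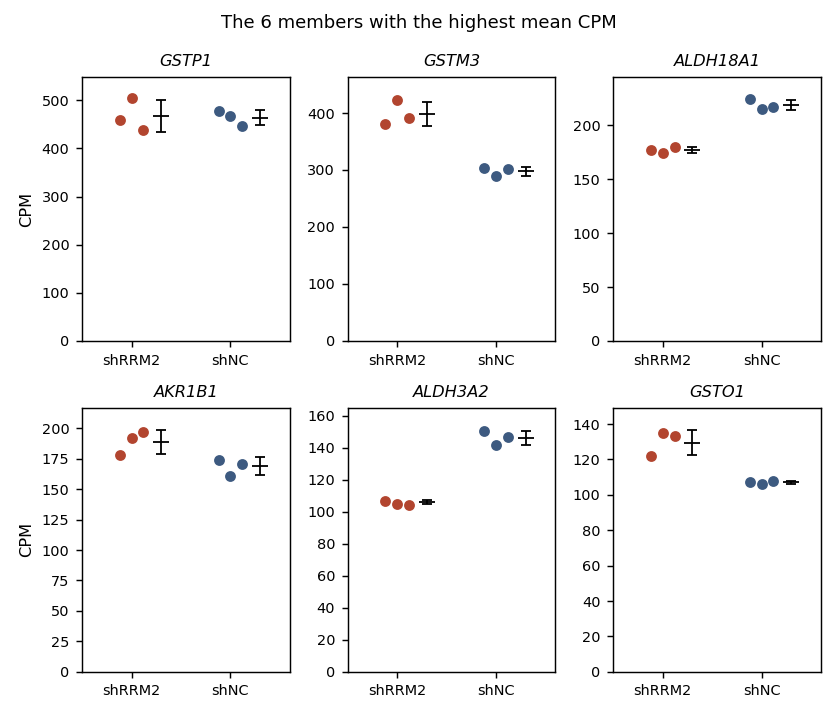
CPM (y axis, from 0) of the 6 members with the highest mean CPM in the 3 shRRM2 libraries (red points) and the 3 shNC libraries (blue points), with mean and SD in black beside them. GSTP1 overlaps between the groups, GSTM3, AKR1B1 and GSTO1 are higher in shRRM2, and ALDH18A1 and ALDH3A2 are lower.

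Levels can be set beside each other only per transcript length, taken here from the principal transcript of GENCODE release 29, which may differ from the authors' annotation. Per kb, GSTP1 had the highest level of the members in both groups, with 486 CPM per kb in shRRM2 and 483 CPM per kb in shNC. AKR1B1 and GSTO1 followed at 134 and 133 CPM per kb in shRRM2, and at 119.7 and 110.2 CPM per kb in shNC. GSTM3 stood at 98.4 CPM per kb in shRRM2 and 73.7 CPM per kb in shNC, and MGST1 at 69.8 CPM per kb in shRRM2 and 80.8 CPM per kb in shNC. In shNC, MGST1 was thus above GSTM3, and in shRRM2 below it. Among the aldehyde dehydrogenases ALDH18A1 was highest, with 52.7 CPM per kb in shRRM2 and 65.1 CPM per kb in shNC. ALDH2 and ALDH3A1, 2 of the members with the highest fold changes, stood at 4.63 and 7.46 CPM per kb in shRRM2 and 2.67 and 3.98 CPM per kb in shNC. The transcript taken for ALDH2 has 9569 bases, and a shorter one would give a higher value per kb.

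**Figure D4:**
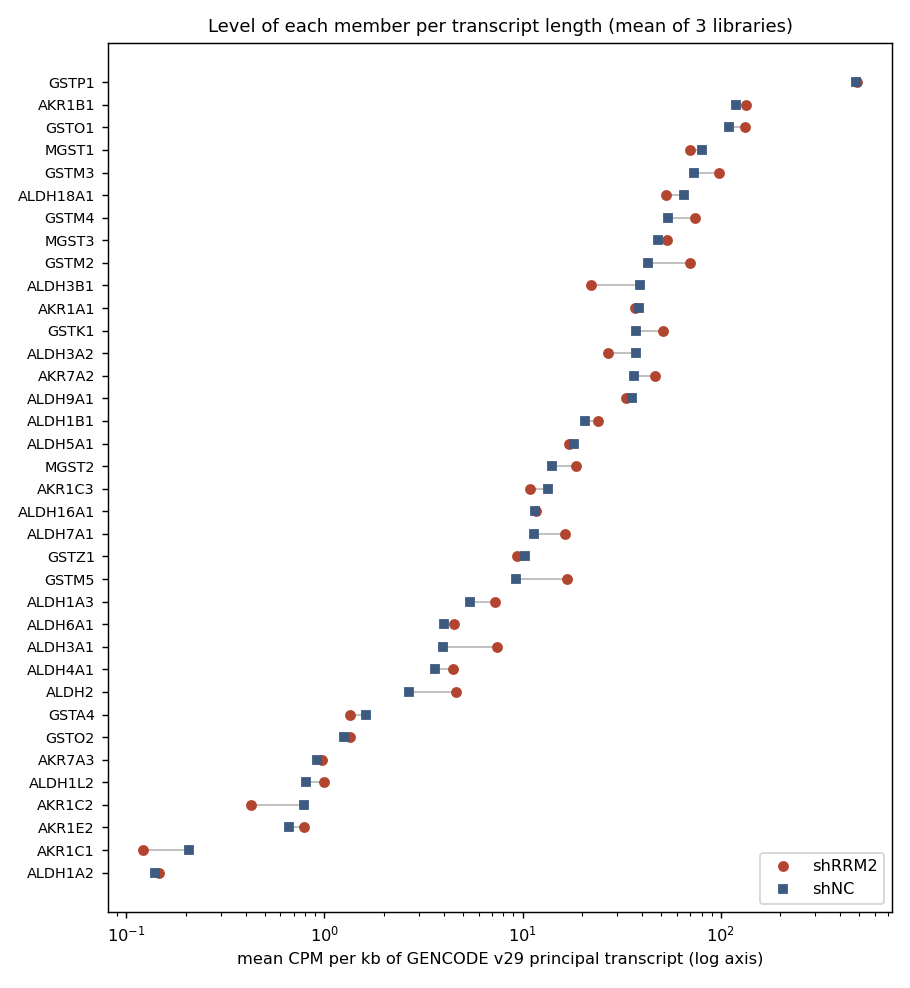
Mean CPM per kb of transcript (x axis, log scale) of the 36 measured members with a GENCODE release 29 transcript, in shRRM2 (red circles) and shNC (blue squares), ordered by the shNC level. GSTP1 is at the top with nearly equal levels, while ALDH1A2 and AKR1C1 are at the bottom. The transcript taken for AKR1C1 has 6705 bases, and a shorter one would give a higher value per kb.

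Lists of neighbouring pathways were counted in the same fit. They were drawn up with earlier results of these data known. Over all tested genes 26.0% were called higher and 26.1% lower, the shares to read beside each list count from here on. Among genes of glutathione supply and recycling, 5 of 21 measured rose and 7 fell. CHAC1, which degrades glutathione, and GGT1, which cleaves it outside the cell, rose by 1.45 (SE 0.137) and 0.94 (SE 0.0611), and the cystathionine-cleaving CTH by 0.57. The 7 that fell include GSR at -0.32 (SE 0.0374) and CHAC2 at -0.36 (SE 0.0884). GGT1 has close copies in the genome, so its counts are less certain.

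Of 29 measured NRF2 regulators and targets outside the families, 5 rose and 18 fell, with a median of -0.27, where 26.1% of all tested genes fell. Those that fell include the autophagy receptor SQSTM1 at -0.88 (SE 0.0292, adjusted p = 1.44e-22), the thioredoxin reductase TXNRD1 at -0.76 and the porphyrin transporter ABCB6 at -0.61. GCLC, GCLM, ME1, PGD and SLC7A11 are among the genes on both lists, and NQO1, ABCC1, ABCC2 and ABCC3 also stand on lists below. Among other carbonyl and alcohol oxidoreductases, 6 of 23 measured rose and 9 fell. The aldehyde oxidase AOX1 rose to 26.0 CPM in shRRM2, against 6.04 CPM in shNC (2.08, SE 0.117, adjusted p = 2.52e-16). The prostaglandin reductase PTGR2 rose by 0.64, and DHRS2, with means of 1.27 CPM in shRRM2 and 2.13 CPM in shNC and overlapping libraries, was lower at -0.76 (adjusted p = 0.0395).

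Among retinoid genes, the neighbours of ALDH1A3 in its pathway, 7 of 15 measured rose and 1, RDH13, was lower at -0.17. The shares over all tested genes were 26.0% higher and 26.1% lower. The plasma retinol carrier RBP4 rose by 2.18 (SE 0.172), the retinoic acid carrier CRABP2 by 1.21 (SE 0.160) and CYP26B1, which degrades retinoic acid, by 1.02 (SE 0.0921). RDH13 was not called without shRRM2 replicate 1 or shNC replicate 1, nor with library size alone, no filter or DESeq2. Of 16 other measured conjugating and hydrolysing enzymes, 8 rose and 2 fell. The carboxylesterases CES3 and CES2 rose by 1.19 and 0.52 and the acetyltransferase NAT1 by 0.75.

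Of the 8 exporters of glutathione conjugates, 2 rose and 3 fell, none by 0.5 or more. Among the proline and glutamate steps beside ALDH18A1, 2 of 10 measured rose and 3 fell, also none by 0.5 or more. Of these only 1 rose without shRRM2 replicate 1, shNC replicate 1 or shNC replicate 2. Of 12 folate genes beside ALDH1L2, 2 rose and 6 fell. Those that fell include the mitochondrial MTHFD1L, at -0.66 (SE 0.0432, adjusted p = 1.23e-14).

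**Figure D5:**
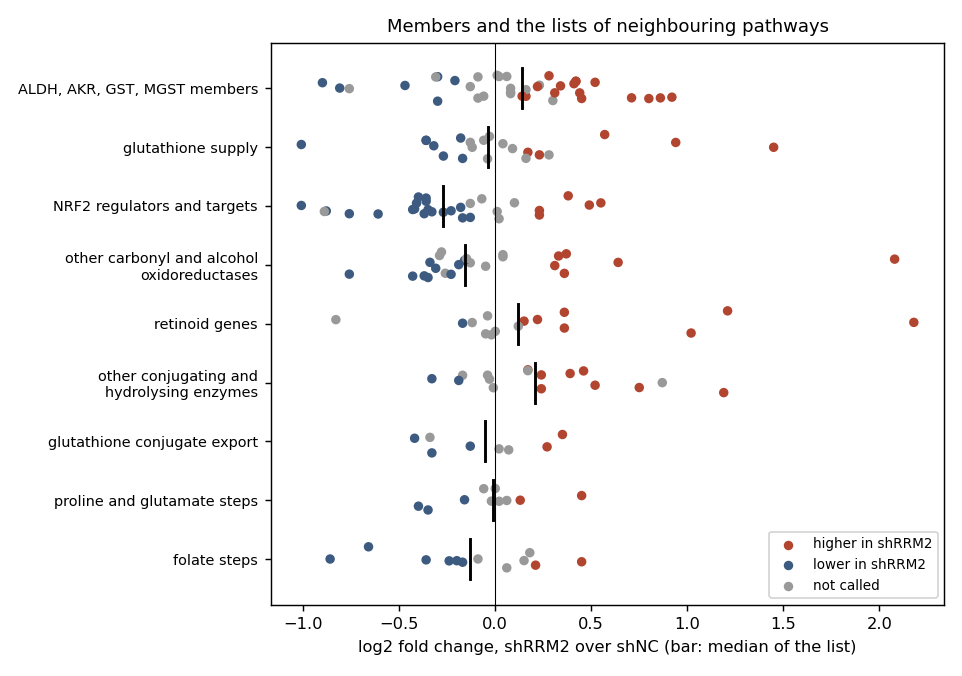
Log2 fold change (shRRM2 over shNC, x axis) of the 37 measured members in the top row and of the measured genes of each neighbouring list below, with the median as a black bar. Red is called higher, blue called lower and grey not called; the NRF2 list has its median at -0.27 and the members at 0.14.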

How the data were processed

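RNA was measured by poly(A) RNA-seq with a directional kit in 3 shRRM2 and 3 shNC libraries. The deposited values are raw read counts per NCBI Gene ID. The authors' tools, per the submitters' processing notes, include featureCounts and fastp 0.23.4, with hg38 as the build; aligner, annotation release, strand and multi-mapping settings were not given in the sources used here. Columns were matched to samples by group name and number; the table writes si where the labels write sh. Of 42902 IDs, 40120 matched RefSeq of GRCh38.p14, the source of symbols, biotypes, coordinates and promoters.

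From the deposited counts, genes were kept with filterByExpr (15866), scaled by TMM and tested with edgeR 4.0.16 in R 4.3.3 (robust quasi-likelihood, group alone, two-sided), with Benjamini-Hochberg adjustment over all tested genes. SE is the size of the log2 fold change over the root of F. No exact permutation test was run, since 3 against 3 allows none below 0.1. The fit was tested on simulated data.

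Members and lists were chosen with earlier results of these data known. Per-library values are given for members called at 0.5 or more in log2 size, for the 6 with the highest mean CPM, and for others singled out after their values were seen, such as ALDH1A3 and the AKR1C and GSTM neighbours. From each other list, at most 4 called genes past 0.5 are named by rule. RDH13, GSR and CHAC2 were added after their values were seen. Some genes that meet this rule are not reported here. Windows of 100 bases of the GENCODE release 29 principal transcript were searched in all other genes' transcripts. Promoters were aligned with Biopython 1.88. Alternatives tried were library size alone, RLE factors, 1 CPM in 3 libraries, no low-count filter, DESeq2 1.42.0, limma-voom (limma 3.58.1), a replicate block, leaving out each library, a threshold of 0.01, and glmTreat.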

Additional observations from a re-analysis of the deposited data

How the results depend on the processing

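The counts of members called, 16 higher and 6 lower, ran from 14 to 16 higher and 5 to 7 lower when each library was left out in turn, and from 14 to 17 higher with 6 lower under the other settings that keep the null of no change. Against a minimum log2 fold change of 0.5 (glmTreat), 4 members remained higher (ALDH3A1, GSTM5, ALDH2 and GSTM2) and 1 lower (ALDH3B1); this null is stricter by construction. Of the 22 called members, 18 kept their call in every one of the 14 other settings, and AKR1C2, AKR1C3, ALDH4A1 and MGST3 lost it in at least 1. The RRM2 log2 fold change lay between -2.34 and -2.29 without each library in turn.

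Of the members, 7 changed sign when a library was left out, and 0 of these were called (edgeR with all libraries). Their log2 fold changes over the 6 fits ran from -0.12 to 0.05 for AKR1A1, -0.11 to 0.17 for AKR7A3, -0.02 to 0.06 for ALDH16A1, -0.22 to 0.46 for ALDH1A2, -0.14 to 0.25 for GSTO2, -0.04 to 0.06 for GSTP1 and -0.07 to 0.24 for GSTT1. With the replicate number as a block, 16 members were higher and 6 lower, the same counts as without it. Same-numbered libraries of the 2 groups did not deviate together (r of -0.02 to 0.00 across genes), so the numbers were not taken as pairs. With a filter of 1 CPM in 3 libraries ALDH1A2 has no value. Of 224 counts of the single lists under other settings, 214 were within 1.5 times the value reported.

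Depth limits the members of few counts. The 6 members under 2.5 CPM that were not called had an SE of 0.278 to 0.487, while the 18 at 40 CPM or more had 0.0350 to 0.0706.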

Other observations

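Noncoding genes and pseudogenes with a family symbol were counted in the same table and lie outside the members. GSTT2, which RefSeq lists as a transcribed pseudogene, had 308, 369 and 358 counts in shRRM2 and 443, 624 and 381 in shNC, a log2 fold change of -0.44 (SE 0.0875, edgeR adjusted p = 6.92e-05). GSTT2B was not analysed here, and whether the GSTT2 counts hold reads of it was not tested. GSTM2P1, a transcribed pseudogene on chromosome 6 away from the other GSTM genes, had 119, 189 and 105 counts in shRRM2 and 72, 108 and 61 in shNC (0.81, SE 0.177, edgeR adjusted p = 2.37e-04). Some 100-base windows of GSTM5 occur in it, and whether its counts hold reads of the GSTM genes was not tested. ALDH1A3-AS1, named as antisense to ALDH1A3, had 77, 96 and 89 counts in shRRM2 and 51, 68 and 65 in shNC (0.53, SE 0.190, edgeR adjusted p = 0.0181). The strand setting is not given in the sources used here, and how far its counts hold reads of ALDH1A3 was not tested. AKR7L and AKR7A2P1 were not called, at -0.48 (edgeR adjusted p = 0.191) and 0.28 (edgeR adjusted p = 0.608).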
